A study of Mus musculus with 18 samples.

Results

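The liver transcriptome at 4 h after 2/3 partial hepatectomy was set against that at 2 h, over all genes. Partial hepatectomy removes most lobes of the liver, and the remaining lobes regrow. The comparison used 4 of the study's 18 libraries, 2 from 4 h and 2 from 2 h. They were chosen by their labels, and the genes by no measured value. Both groups were C57BL/6 mice after the same operation, so that they differed by label in hours alone. Each library was a pool of liver RNA from 3 mice, and n = 2 pools per group below. The labels do not give the sex or age of the mice or the time of day at collection. Other groups named below are mice at 0.5, 24, 48 and 168 h after the operation and mice after a sham operation, which left the liver in place and was taken at a time the labels do not give.

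Hours after hepatectomy, cytokines such as interleukin 6, made mainly by Kupffer cells, the macrophages of the liver, act on hepatocytes through STAT3. Hepatocytes then make more of the acute phase proteins, plasma proteins of inflammation and clotting. Genes of this early priming phase precede DNA synthesis, which hepatocytes enter later. The same cells keep blood glucose, bile acids and lipids in balance throughout, and many of these metabolic genes also follow feeding and the daily clock.

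A gene was tested if it passed a filter on low counts, and 12199 genes did. Levels are CPM, counts per 1000000 reads, after TMM scaling, which sets libraries on a common scale for the bulk of genes. A gene was called if its adjusted p in edgeR's quasi-likelihood test was under 0.05 (Benjamini-Hochberg over all 12199 genes). Of all genes tested, 817 were called, which is 6.7%. At 4 h 318 genes were higher (2.61%) and 499 were lower (4.09%), while 11382 were not called. The estimated change was at least 2-fold for 200 of the higher and 189 of the lower genes. The median log2 fold change of the higher genes was 1.13 and that of the lower genes was -0.89, against 0.03 for all genes tested. All 817 called genes had both 4 h libraries on the same side of both 2 h libraries, as did 6372 of all genes tested. Scaled by library totals alone the median gene lay at -0.089 on the log2 scale, against 0.032 with TMM, and 232 genes were called higher and 1005 lower. The share of calls that were higher was then 18.8%, against 38.9% with TMM. With only the 4 libraries in the fit, 303 genes were higher and 316 lower, a share of 48.9%. On log2(RPKM + 1) values limma called 241 higher and 984 lower, a share of 19.7%. The count of calls was 197 without 4 h replicate 1, 380 without 4 h replicate 2, 460 without 2 h replicate 1 and 169 with 2 h replicate 2 left out. Changes below are therefore relative to the bulk of genes.

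**Figure D1:**
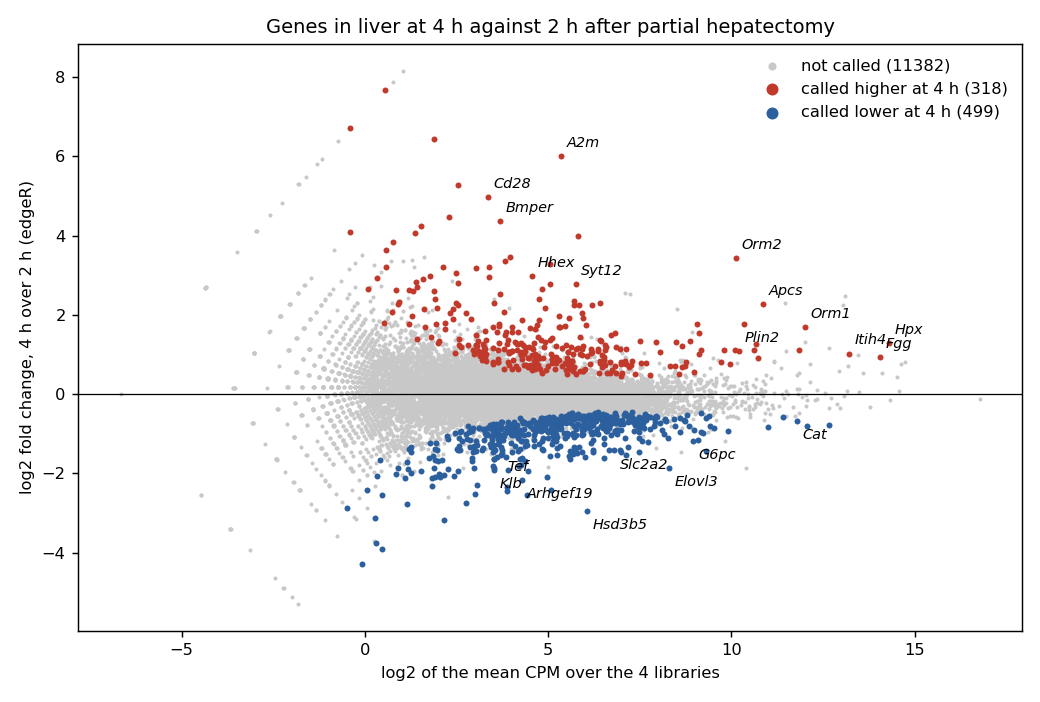
Each point is 1 of 12199 genes, with the log2 of its mean CPM over the 4 libraries on the x axis and the edgeR log2 fold change of 4 h over 2 h on the y axis. The 318 genes called higher are red and the 499 called lower are blue, and A2m, with a log2 fold change of 6.00, is the highest labelled point.

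In units of 1000000 uniquely mapped reads the 4 libraries held 7.81 to 8.69, and 3 reads were at most 0.386 CPM by library totals in any library of the study. All 8 hepatocyte markers were measured in all 4 libraries and none was called, and albumin (Alb) alone took 7.97% and 9.18% of the reads at 4 h and 9.77% and 10.5% at 2 h. The 10 most abundant genes took 27.0% and 26.0% of the reads at 4 h, against 22.9% and 24.6% at 2 h. Of 16 neutrophil and monocyte markers 15 had a log2 fold change above 0, with a summed level of 195.6 and 97.7 CPM at 4 h, against 106.3 and 80.8 CPM at 2 h. Of 13 Kupffer cell and macrophage markers 12 were above 0, with 1184 and 952.2 CPM at 4 h, against 691.0 and 783.7 CPM at 2 h. Of 78 marker genes tested, 1 (Slc4a1, of red cells) had 0 reads in a library, 2 h replicate 2. In whole tissue, fewer cells of a type and less RNA per cell cannot be told apart.

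Among the genes with the most change, some, such as Cd28, had few reads at 2 h, while others, such as Orm2, were already well read there. Cd28 (chr1:60746388-60773359), the costimulatory receptor of T cells, had 20.4 and 19.5 CPM at 4 h, against 0.993 and 0.273 CPM at 2 h. The 4 h libraries were both far above the 2 h libraries, which held 7 and 2 reads. Its log2 fold change was 4.96 ± 0.61 (SE), with adjusted p = 0.00077 in edgeR's test. Of 11 lymphocyte markers 5 were tested and 0 were called. The summed level of those tested was 6.7 and 3.9 CPM at 4 h, against 5.0 and 6.7 CPM at 2 h. At so low a level they cannot show whether lymphocytes changed. Raph1 and Abi2, the genes next to Cd28 on chromosome 1, were also called higher. Raph1, a regulator of actin at cell edges, had 237.7 and 286.9 CPM at 4 h, against 106.3 and 102.1 CPM at 2 h. Both were named after their values were seen.

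A2m, a plasma protease inhibitor of the acute phase in rodents, had the largest estimate among the named genes, at 6.00 ± 1.51 on the log2 scale (adjusted p = 0.033 in edgeR's test). It had 49.0 and 112 CPM at 4 h, against 0.142 and 2.32 CPM at 2 h, where the libraries held 1 and 17 reads. The 2 h pools thus lay far apart, and the call was lost on log2(RPKM + 1) values and whichever of the 4 libraries was left out. Bmper, a secreted regulator of bone morphogenetic proteins, had 26.0 and 23.3 CPM at 4 h, against 0.993 and 1.36 CPM at 2 h (log2 fold change 4.37). Syt12, a synaptotagmin of vesicle traffic, had 109 and 80.4 CPM at 4 h, against 10.8 and 16.6 CPM at 2 h (log2 fold change 2.78). Both genes had groups that did not overlap, with close libraries within a group. Slc13a5, the hepatocyte importer of citrate, had 85.9 and 35.6 CPM at 4 h, against 4.82 and 7.63 CPM at 2 h. Ralgds, an exchange factor for Ral GTPases, had 66.6 and 31.1 CPM at 4 h, against 6.10 and 9.41 CPM at 2 h. In both, 4 h replicate 1 was well above 4 h replicate 2, and the 2 h libraries were below both.

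Hhex, a homeobox factor of liver development, had 60.4 and 23.4 CPM at 4 h, against 6.24 and 4.36 CPM at 2 h (log2 fold change 2.98 ± 0.39, adjusted p = 0.0013 in edgeR's test). Its sham libraries had 116 and 78.3 CPM, its 0.5 h libraries 120 and 79.0 CPM and its 24 h libraries 87.7 and 89.3 CPM. The 2 h libraries were thus the low ones, and at 4 h Hhex was still below every sham, 0.5 h and 24 h library. The remaining genes among the 14 largest rises were Akr1b7 (an aldo-keto reductase), the chemokine Cxcl14, Orm2, the innate immune kinase Alpk1, Moxd1, the serine protease Prtn3 and Isyna1 (inositol synthesis), with log2 fold changes from 2.79 to 3.99. Akr1b7 was high in 1 pool, with 188 and 25.9 CPM at 4 h, against 4.25 and 9.13 CPM at 2 h, and neither limma analysis called it. Moxd1 was not called by DESeq2. Cd28, Hhex, Syt12 and Ralgds were called whichever library was left out. Of the 14, 7 were called without 4 h replicate 1, 12 without 4 h replicate 2, 6 without 2 h replicate 1 and 4 with 2 h replicate 2 left out. Akr1b7, Slc13a5, Prtn3 and Syt12 overlap exons of a gene on the other strand, whose reads cannot be told apart where counting ignores strand.

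Arhgef19, a guanine nucleotide exchange factor (chr4:141239605-141257915), had the smallest p of all genes named here. It had 7.03 and 7.18 CPM at 4 h, against 33.5 and 29.9 CPM at 2 h. The log2 fold change was -2.15 ± 0.16 (adjusted p = 4.89e-05 in edgeR's test). Libraries within a group differed little, and the sham libraries had 44.1 and 44.7 CPM and the 24 h libraries 62.2 and 64.8 CPM, so that 4 h was the low time. Hsd3b5, a steroid dehydrogenase higher in male mouse liver, had 15.6 and 15.3 CPM at 4 h, against 118 and 120 CPM at 2 h (log2 fold change -2.94). Hsd3b5 lost its call without 4 h replicate 1, 4 h replicate 2 or 2 h replicate 2. Its neighbours Hsd3b2 and Hsd3b3 on chromosome 3 were called lower too, named here after their values were seen, with log2 fold changes of -1.47 and -1.21. These are related genes, and reads that match more than 1 of them may have been split or dropped.

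Klb, the coreceptor through which FGF21 and, in hepatocytes, FGF15 signal, had 5.59 and 4.06 CPM at 4 h, against 20.6 and 16.1 CPM at 2 h (log2 fold change -1.92 ± 0.27, adjusted p = 0.0016 in edgeR's test). Its sham libraries had 14.9 and 17.8 CPM and its 24 h libraries 22.5 and 17.5 CPM. The 4 h libraries stood below all of these. Elovl3, a fatty acid elongase that varies with the clock and with sex, had 139 and 130 CPM at 4 h, against 397 and 591 CPM at 2 h. The other genes among the 14 largest falls were the replication factor Mcm10, Zfp385b, Sdr9c7, N4bp2l1, the apolipoprotein L genes Apol7a and Apol9a, the F-box gene Fbxo21, the signalling adaptor Bcar3, Spata2l and the transcription factor Sox5, with log2 fold changes from -2.55 to -1.80. Both 4 h libraries of all 14 lay below the listed sham libraries, and in 13 both 24 h libraries lay above both 4 h libraries. The exception was Elovl3, with 244 and 138 CPM at 24 h. In 12 of the 14 largest rises both 24 h libraries lay below both 4 h libraries, the exceptions being Akr1b7 and Hhex. The listed sham libraries lay below both 4 h libraries in 12 of the 14 rises too, with both sham libraries listed for 5. The 4 h values chose these genes, so the counts are a description. Of the 14 falls, 10 were called without 4 h replicate 1, 10 without 4 h replicate 2, 12 without 2 h replicate 1 and 11 with 2 h replicate 2 left out, and 10 were called whichever library was left out. The falls that lost their call in some of these fits were Hsd3b5, Mcm10, Elovl3 and Apol9a. N4bp2l1, Bcar3, Elovl3, Spata2l and Sox5 overlap exons of another gene.

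**Figure D2:**
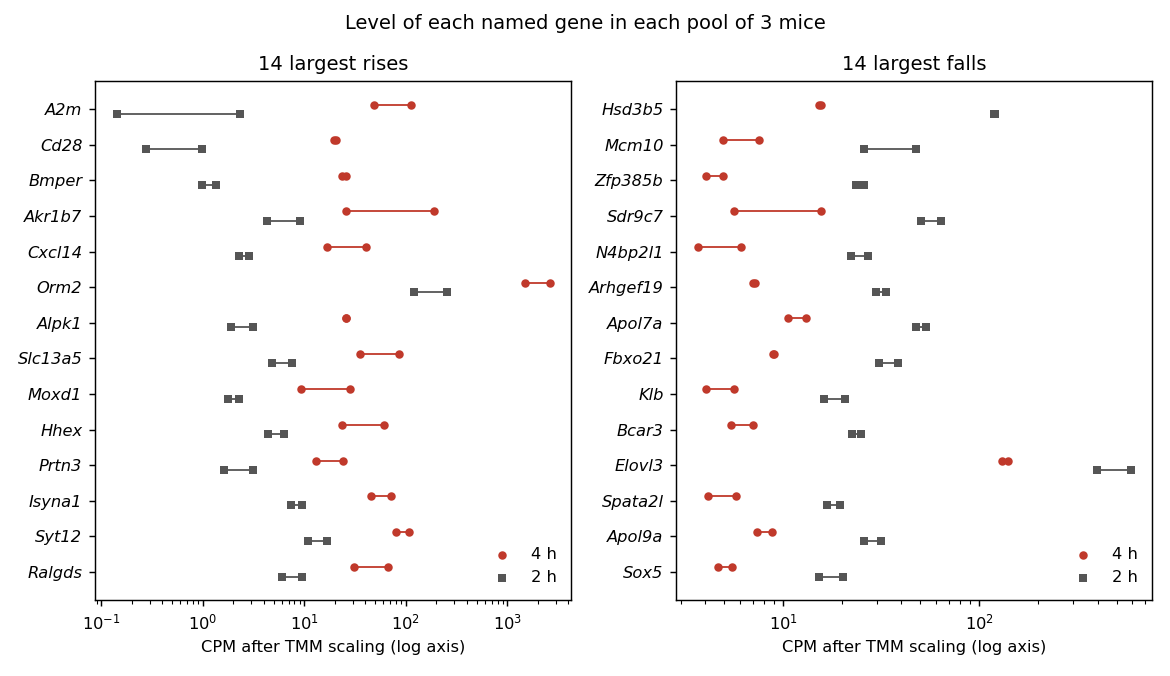
Each row is 1 of the 14 largest rises (left) or 14 largest falls (right), with the CPM of its 2 libraries at 4 h (red circles) and 2 h (grey squares) on a log axis and a line joining the libraries of a group. No gene has overlapping groups, and Akr1b7 spans 188 and 25.9 CPM at 4 h.

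All called acute phase genes rose. Of 43 tested, 11 were called higher and 0 lower, and 36 had a log2 fold change above 0. Their median was 0.81, against 0.03 over all genes tested, of which 2.61% were called higher. The list's count of higher calls was 2 without 4 h replicate 1, 6 without 4 h replicate 2, 4 without 2 h replicate 1 and 1 with 2 h replicate 2 left out. It was 15 with DESeq2, 19 with only the 4 libraries in the fit and 25 without a filter on low counts. Neutrophil and Kupffer cell markers were on balance above 0 in the same libraries, as given above, and their part in this result was not tested.

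The promoters of called acute phase genes are shown for the letters that STAT3 and C/EBP factors read, since these carry the cytokine signal to such genes. Of the 11 called, 6 matched a RefSeq promoter (GRCm38.p6, the mm10 build). The sequences run to the base before the gene's start, and capitals mark a match to TTCNNNGAA (STAT), TTGCNNAA (C/EBP) or TATAAA (the core promoter box, gene strand only), the first pair searched on both strands.
Apcs, chr1:172895055-172895304, minus strand: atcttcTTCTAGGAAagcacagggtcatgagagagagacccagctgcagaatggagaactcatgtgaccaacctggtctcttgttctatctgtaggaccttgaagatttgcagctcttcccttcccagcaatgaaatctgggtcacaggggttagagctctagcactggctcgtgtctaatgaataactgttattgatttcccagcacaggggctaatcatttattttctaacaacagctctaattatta
Orm2, chr4:63362319-63362448, plus strand: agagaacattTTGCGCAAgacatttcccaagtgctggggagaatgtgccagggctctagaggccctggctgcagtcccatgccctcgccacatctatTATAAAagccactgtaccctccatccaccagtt
Itih4, chr14:30886356-30886475, plus strand: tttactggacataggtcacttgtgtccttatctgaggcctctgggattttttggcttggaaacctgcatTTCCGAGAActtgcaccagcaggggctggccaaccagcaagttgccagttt
Hpx, chr7:105600117-105600326, minus strand: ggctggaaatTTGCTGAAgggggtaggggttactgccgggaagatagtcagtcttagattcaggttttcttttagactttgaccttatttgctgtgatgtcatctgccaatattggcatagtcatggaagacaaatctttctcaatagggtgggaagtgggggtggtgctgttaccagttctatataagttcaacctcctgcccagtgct
In the whole window, 250 bases before the start to 50 after it, the STAT letters were in 9 of the 32 promoters of acute phase genes tested (28.1%) and the C/EBP letters in 17 (53.1%). Among all 9756 promoters of tested genes the shares were 7.1% and 8.7%. Over all 239 promoters of genes called higher the STAT letters were in 8.8% and the C/EBP letters in 7.1%, and over the 397 of genes called lower in 6.3% and 8.6%. The other promoters of the 6, those of Itih3 and Fgg, held neither set of letters. A match of letters is a description and not a site.

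By role, the lipid-carrying and scavenging plasma proteins came first. Orm1 and Orm2 encode orosomucoids, which bind drugs and lipids in plasma. Orm1 had 7046 and 5479 CPM at 4 h, against 2115 and 1735 CPM at 2 h (log2 fold change 1.70 ± 0.34). Orm2 had 2609 and 1485 CPM at 4 h, against 257 and 121 CPM at 2 h (log2 fold change 3.43 ± 0.83). In both, the lowest 4 h library was well above the highest 2 h library. The 2 genes are near-identical, and uniquely mapped reads may divide unevenly between them. Hpx, hemopexin, which binds free haem, had 32566 and 24378 CPM at 4 h, against 10826 and 12574 CPM at 2 h. Apcs, serum amyloid P, the main pentraxin of the mouse acute phase, had 3333 and 2863 CPM at 4 h, against 788 and 504 CPM at 2 h (log2 fold change 2.26 ± 0.42, adjusted p = 0.0081 in edgeR's test). Its sham libraries had 176 and 364 CPM and its 24 h libraries 893 and 1418 CPM, so that it was highest at 4 h among these times.

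The clotting and protease inhibitor genes followed. Fgg, the fibrinogen gamma chain, had 23663 and 20955 CPM at 4 h, against 11447 and 11684 CPM at 2 h. The alpha and beta chains moved by like amounts without passing the test, with log2 fold changes of 0.81 for Fga (adjusted p = 0.10) and 0.76 for Fgb (adjusted p = 0.088), and DESeq2 and the fit without a filter called both. Fgl1, a fibrinogen-like hepatokine, had 2324 and 2316 CPM at 4 h, against 1136 and 793 CPM at 2 h. Itih3 and Itih4, adjacent genes of chromosome 14 that encode inter-alpha-trypsin inhibitor heavy chains, had log2 fold changes of 1.12 and 1.02. Serpina3m, of the antichymotrypsin cluster, had 0.91. Itih4, Fgg, Hpx, Serpina3m, Fga and Fgb were named after their values were seen.

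Some of the best known acute phase genes of the mouse did not pass the test as reported although their libraries did not overlap, and they are named here after their values were seen. Saa1, serum amyloid A, had 16220 and 11692 CPM at 4 h, against 3020 and 2824 CPM at 2 h (log2 fold change 2.26 ± 0.65, adjusted p = 0.054 in edgeR's test). Saa2 had 17037 and 12632 CPM at 4 h, against 2704 and 2678 CPM at 2 h (adjusted p = 0.077 in edgeR's test). Lcn2, lipocalin 2, which holds iron from bacteria, had 5805 and 3580 CPM at 4 h, against 947 and 945 CPM at 2 h (adjusted p = 0.097 in edgeR's test). The 2 h libraries of these genes were close, while 4 h replicate 1 was above 4 h replicate 2 in each. The spread in the test is estimated over all groups of the fit. At 168 h the Saa1 libraries lay apart, at 377 and 1438 CPM, and the part of other groups in these adjusted p was not tested. These genes did not pass in any fit that left a library out. With only the 4 libraries in the fit all 3 were called, at adjusted p = 0.00085 for Saa1, 0.00051 for Saa2 and 0.0012 for Lcn2, and without a filter on low counts all 3 were called too. Saa1 was also called by DESeq2 (adjusted p = 0.046), by limma on log2 CPM, with totals alone and with a replicate block.

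Signalling genes upstream of the acute phase moved in both directions. Of 21 IL-6 and STAT3 genes tested, 3 were called higher and 1 lower, with a median log2 fold change of -0.02. Among all genes tested 2.61% were called higher and 4.09% lower. Osmr, the receptor of oncostatin M, a cytokine related to IL-6, had 45.2 and 35.0 CPM at 4 h, against 10.1 and 13.8 CPM at 2 h (log2 fold change 1.75 ± 0.42, adjusted p = 0.026 in edgeR's test). Ptpn2 and Ptpn1, phosphatases that act on JAK kinases and STAT factors, had log2 fold changes of 1.18 and 1.12. Tyk2, a JAK kinase, had 7.50 and 9.83 CPM at 4 h, against 18.4 and 17.6 CPM at 2 h. Thus a receptor and a pair of brakes were higher and a kinase was lower. Socs3, the STAT3-induced inhibitor of IL-6 signalling, had 148 and 143 CPM at 4 h, against 173 and 292 CPM at 2 h (adjusted p = 0.51), and Stat3 itself had 402 and 374 CPM at 4 h, against 262 and 411 CPM at 2 h. The list counted 1 higher call without 4 h replicate 1 and 0 without any other single library, and Tyk2 was called only when 4 h replicate 2 was the library left out.

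Of 31 NF-kB targets and regulators tested, 0 were called higher and 1 lower, against 2.61% and 4.09% of all genes tested. The one called was Cxcl2, a neutrophil chemokine, with 1 read in the 4 h libraries against 26 in the 2 h libraries. Their ratio after scaling was 0.0436, with a 95% counting interval of 0.00106 to 0.266, and the call was lost whichever library was left out (adjusted p up to 0.19), while DESeq2 gave it no adjusted p. Tnfaip3, which encodes the NF-kB inhibitor A20, had 14.4 and 13.3 CPM at 4 h, against 24.4 and 75.1 CPM at 2 h (log2 fold change -1.85, adjusted p = 0.052 in edgeR's test). Il1rn, the interleukin 1 receptor antagonist, had 312 and 202 CPM at 4 h, against 29.5 and 59.2 CPM at 2 h (log2 fold change 2.53, adjusted p = 0.15). Tifa, an adaptor that binds TRAF6, had 674 and 521 CPM at 4 h, against 109 and 162 CPM at 2 h (adjusted p = 0.090). Groups did not overlap in any of these 3 genes, and none passed the test as reported. All 3 were called with only the 4 libraries in the fit (adjusted p = 0.030 for Tnfaip3, 0.0022 for Il1rn and 0.0012 for Tifa), with a replicate block and without a filter on low counts, and Tnfaip3 was also called by DESeq2 (0.0070). The list counted 3 higher and 4 lower with only the 4 libraries, 4 and 3 without a filter, and 2 and 2 with the block.

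Of 25 immediate early genes tested, 1 was called, with a median log2 fold change of -0.21, where 6.7% of all genes tested were called. Jun had 53.6 and 54.6 CPM at 4 h, against 31.1 and 39.7 CPM at 2 h (log2 fold change 0.61 ± 0.15, adjusted p = 0.031 in edgeR's test), and 78.3 and 102 CPM at 0.5 h. This call was lost with totals alone, with log2(RPKM + 1), with only the 4 libraries in the fit and without 3 of the 4 libraries (4 h replicate 1, 4 h replicate 2 or 2 h replicate 1), with adjusted p up to 0.15. Myc had 18.7 and 15.6 CPM at 4 h, against 25.9 and 41.2 CPM at 2 h (adjusted p = 0.063), and Egr1 had 88.0 and 59.9 CPM at 4 h, against 73.9 and 147 CPM at 2 h. Fos had 7.50 and 3.75 CPM at 4 h, against 8.51 and 4.50 CPM at 2 h. For Egr1 and Fos the groups overlapped.

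Of 38 growth factors, receptors and feedback genes tested, 2 were called higher and 2 lower, and without a filter 5 and 4. Over all genes tested the shares were 2.61% higher and 4.09% lower. Smad7, the inhibitor of TGF-beta signalling, had 6.71 and 7.18 CPM at 4 h, against 1.99 and 2.45 CPM at 2 h (log2 fold change 1.64 ± 0.30). It was called whichever library was left out, and its 24 h libraries had 6.37 and 6.89 CPM. The inhibin beta genes encode subunits of liver activins and parted: Inhbe had 11.2 and 33.6 CPM at 4 h, against 6.10 and 4.50 CPM at 2 h, and Inhbc had 42.6 and 42.9 CPM at 4 h, against 74.4 and 85.1 CPM at 2 h. Their log2 fold changes were 2.08 and -0.90. Dusp6, the ERK phosphatase, had 26.3 and 24.5 CPM at 4 h, against 50.6 and 45.7 CPM at 2 h. Fgf21, the fasting hormone that signals through Klb, had 7.98 and 0.936 CPM at 4 h, against 0.142 and 0.682 CPM at 2 h (adjusted p = 0.057). Inhbe lost its call without 3 of the libraries (4 h replicate 2, 2 h replicate 1 or 2 h replicate 2; adjusted p up to 0.19), Inhbc without 4 h replicate 1, 4 h replicate 2 or 2 h replicate 2 (up to 0.091), and Dusp6 whichever library was left out (up to 0.17).

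All called genes of glucose handling fell. Of 26 genes of glycolysis and glucose use tested 6 were called lower and 0 higher, and of 26 genes of gluconeogenesis and fasting 4 lower and 0 higher, against 4.09% of all genes called lower. Slc2a2, the hepatocyte glucose transporter GLUT2 (chr3:28697903-28728361), had 61.5 and 60.2 CPM at 4 h, against 151 and 175 CPM at 2 h (log2 fold change -1.42 ± 0.19, adjusted p = 0.0014 in edgeR's test). Its sham libraries had 163 and 161 CPM and its 24 h libraries 161 and 137 CPM, so that 4 h was the low time. The genes that store and release glycogen were both lower, Gys2 (glycogen synthase) by a log2 fold change of -0.93 and Pygl (glycogen phosphorylase) by -0.80. Pklr, liver pyruvate kinase, had 84.5 and 71.8 CPM at 4 h, against 124 and 188 CPM at 2 h.

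On the other side of the glucose balance, G6pc, glucose-6-phosphatase, which releases glucose, had 316 and 287 CPM at 4 h, against 815 and 556 CPM at 2 h (log2 fold change -1.19). Pdk2, the kinase that shuts pyruvate dehydrogenase, had 23.2 and 29.0 CPM at 4 h, against 67.2 and 73.8 CPM at 2 h (log2 fold change -1.43 ± 0.16, adjusted p = 0.00057 in edgeR's test). Foxo1, the fasting transcription factor, and Gpt, alanine aminotransferase, had smaller changes of -0.55 and -0.52. In the fit as reported, called genes of glucose use and of glucose release were thus lower at the same time. Pck1, of gluconeogenesis and named after its values were seen, was not called (log2 fold change -0.56, adjusted p = 0.16 in edgeR's test). Slc2a2 and Pdk2 were called whichever library was left out. G6pc lost its call whichever library was left out, and Pygl without 4 h replicate 1, 4 h replicate 2 or 2 h replicate 2. Foxo1 lost its call with only the 4 libraries in the fit and whichever library was left out. Gpt lost its call with only the 4 libraries and without a filter on low counts. The Gpt call was also lost without 4 h replicate 1, 4 h replicate 2 or 2 h replicate 2. The glycolysis list counted 2 lower calls without 4 h replicate 1, 4 without 4 h replicate 2, 6 without 2 h replicate 1 and 2 with 2 h replicate 2 left out, and the gluconeogenesis list 1, 2, 2 and 1 in the same order. With only the 4 libraries in the fit the gluconeogenesis list counted 2.

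Of 25 genes of fatty acid and triglyceride synthesis, 6 were called lower and 1 higher, against 4.09% and 2.61% of all genes tested. Srebf1, the insulin-driven regulator of lipid synthesis, had 31.8 and 26.8 CPM at 4 h, against 77.1 and 86.0 CPM at 2 h (log2 fold change -1.48 ± 0.25), and its 48 h libraries had 344 and 208 CPM. Mlxipl, which encodes ChREBP, the glucose-sensing factor, had 39.6 and 57.9 CPM at 4 h, against 90.8 and 104 CPM at 2 h. Lpin2, a phosphatidate phosphatase of triglyceride synthesis, had 86.2 and 78.8 CPM at 4 h, against 221 and 199 CPM at 2 h. The regulators of both the insulin and the glucose arm and an enzyme of the pathway were thus lower. Dgat2, the last enzyme of triglyceride synthesis, had a log2 fold change of -0.69 and Mid1ip1, an activator of acetyl-CoA carboxylase, one of -1.45. Scd2, a desaturase, was the one called higher, at 1.28, and it lost the call with totals alone, with log2(RPKM + 1) and whichever library was left out (adjusted p up to 0.27). The list counted 3 lower calls without 4 h replicate 1, 3 without 4 h replicate 2, 5 without 2 h replicate 1 and 2 with 2 h replicate 2 left out.

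A gene of lipid storage and one of cholesterol export were higher. Plin2, the coat protein of lipid droplets, which fill the regenerating liver, had 1831 and 1415 CPM at 4 h, against 629 and 901 CPM at 2 h (log2 fold change 1.09 ± 0.19, adjusted p = 0.0062 in edgeR's test). Abca1, which exports cholesterol to HDL, had 748 and 823 CPM at 4 h, against 356 and 369 CPM at 2 h (log2 fold change 1.12 ± 0.21). Stard4, an intracellular carrier of cholesterol, had 14.1 and 9.52 CPM at 4 h, against 31.6 and 22.2 CPM at 2 h. Bdh1, an enzyme of ketone body synthesis, had a log2 fold change of -0.84. Plin2 and Bdh1 came from a list of 33 fatty acid oxidation and PPARalpha genes with 1 call higher and 2 lower, and the others from 27 cholesterol genes with 1 and 2. These counts were near the share over all genes tested, 2.61% higher and 4.09% lower. Lower calls in the oxidation list numbered 4 with DESeq2, 6 with totals alone, 4 and 6 with limma on log2 CPM and log2(RPKM + 1), 7 without a filter and 4 with only the 4 libraries. Plin2 lost its call without 4 h replicate 1 (adjusted p = 0.065), Abca1 without 2 h replicate 2 (0.063), Bdh1 without 4 h replicate 1 or 2 h replicate 2 (up to 0.082), and Stard4 whichever library was left out (up to 0.23).

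Of 39 cytochrome P450 genes tested, 8 were called lower and 0 higher, and their median log2 fold change of -0.50 was the lowest of the 36 gene lists. These enzymes oxidise drugs, steroids and fatty acids. Over all genes tested, beside which the counts of this paragraph stand, 4.09% were called lower and 2.61% higher. Cyp2c50 had 365 and 433 CPM at 4 h, against 835 and 751 CPM at 2 h (log2 fold change -0.99 ± 0.20, adjusted p = 0.011 in edgeR's test). Cyp2c37 had 71.2 and 100 CPM at 4 h, against 196 and 176 CPM at 2 h. With Cyp2c54 these form a run of 3 neighbouring genes called lower on chromosome 19, and as relatives they share sequence. Cyp2d9, Cyp2d26 and Cyp2a12 had smaller log2 fold changes of -0.79, -0.55 and -0.52. The list counted 0 lower calls without 4 h replicate 1, 3 without 4 h replicate 2, 3 without 2 h replicate 1 and 1 with 2 h replicate 2 left out. Of 27 bile acid genes 3 were lower: Klb, Hsd3b7, an early enzyme of bile acid synthesis, at -0.74, and Abcc2, an exporter of conjugates to bile, at -0.65; they counted 1, 1, 3 and 1 without the same libraries. In that list 23 of 27 had a log2 fold change below 0, and its lower calls numbered 5 with DESeq2 and with only the 4 libraries, 7 with totals alone, and 8 on log2(RPKM + 1) and without a filter. Of 31 conjugation genes Ugt1a1, which conjugates bilirubin, and Ugt2b35 were lower at -0.64 and -0.68, and Nnmt, which methylates nicotinamide, was higher with 728 and 747 CPM at 4 h, against 347 and 380 CPM at 2 h. Lower conjugation calls numbered 7 on log2(RPKM + 1), 4 with totals alone and 0 with only the 4 libraries. Ugt1a1 shares exons with the other Ugt1a genes. All 3 conjugation genes lost their call without at least 3 of the 4 libraries (4 h replicate 1, 4 h replicate 2 and 2 h replicate 2; adjusted p up to 0.28).

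Further lists of liver function had a few calls each, where 2.61% of all genes tested were called higher and 4.09% lower. Of 33 male-biased and growth hormone genes 5 were lower, among them Hsd3b5, Elovl3, Stat5b, the factor that growth hormone acts through, at -1.01, and Igfals, the carrier subunit of circulating IGF1, at -1.02. Higher in that list were Moxd1 and Cux2, a homeobox factor higher in female mouse liver. Cux2 had 3.51 and 2.03 CPM at 4 h, against 0.142 and 0.273 CPM at 2 h. The lower calls numbered 1 without 4 h replicate 1, 1 without 4 h replicate 2, 4 without 2 h replicate 1, 0 with 2 h replicate 2 left out, 8 with only the 4 libraries and 9 without a filter. Cux2 lost its call without either 2 h library (adjusted p up to 0.15) and had no adjusted p in DESeq2. Of 34 urea cycle and amino acid breakdown genes 4 were lower (10 with totals alone or on log2(RPKM + 1), 1 with only the 4 libraries), such as Prodh, proline dehydrogenase, at -0.92, and 2 higher, Sdsl, a serine dehydratase relative, at 1.37 and Aass, of lysine breakdown, at 0.76. Of 24 NRF2 and antioxidant genes 3 were lower, Cat, catalase, at -0.67, Prdx6 at -0.60 and Gclc, of glutathione synthesis, at -0.63, and 1 was higher, Sod2, mitochondrial superoxide dismutase, at 0.71. With only the 4 libraries in the fit Cat, Prdx6 and Gclc all lost their call. Each of these amino acid and antioxidant genes lost its call without at least 2 of the libraries, among them 2 h replicate 2 for all 7 (adjusted p up to 0.21).

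Of 20 clock genes tested, 4 were called lower and 0 higher, against 4.09% and 2.61% of all genes tested. Tef, a PAR bZIP factor that carries clock output to liver genes, had 7.82 and 6.24 CPM at 4 h, against 20.8 and 18.4 CPM at 2 h (log2 fold change -1.48 ± 0.18, adjusted p = 0.00082 in edgeR's test). Hlf, of the same family, had 16.6 and 18.4 CPM at 4 h, against 44.2 and 35.9 CPM at 2 h. Cry2, a repressor of the clock, had 12.8 and 10.6 CPM at 4 h, against 24.7 and 28.1 CPM at 2 h. Npas2, an activator of the clock, had a log2 fold change of -0.86. In all 4 the groups did not overlap. Npas2 had 37 and 32 reads at 4 h, against 66 and 77 reads at 2 h. Its call was lost with DESeq2, with only the 4 libraries in the fit and whichever library was left out. Arntl, the core activator BMAL1, had 31.5 and 36.5 CPM at 4 h, against 30.9 and 33.1 CPM at 2 h, and Dbp, the third PAR factor, had 0.958 and 0.468 CPM at 4 h, against 0.142 and 0.273 CPM at 2 h. Hours after the operation and time of day cannot be told apart in this comparison. The list counted 2 calls without 4 h replicate 1, 2 without 4 h replicate 2, 3 without 2 h replicate 1 and 2 with 2 h replicate 2 left out.

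Of 35 hepatocyte transcription factors and nuclear receptors, 3 were called higher and 4 lower, against 2.61% and 4.09% of all genes tested. The thyroid hormone receptors Thra and Thrb were lower, with Thra at 4.63 and 4.06 CPM at 4 h, against 8.93 and 10.2 CPM at 2 h, and Thrb at 20.4 and 28.4 CPM at 4 h, against 46.9 and 43.6 CPM at 2 h. Nr1i3, the xenobiotic receptor CAR that drives Cyp2 genes, had 14.2 and 15.0 CPM at 4 h, against 30.2 and 28.9 CPM at 2 h. Nfix had 25.9 and 23.4 CPM at 4 h, against 49.9 and 49.6 CPM at 2 h, and was called whichever library was left out. Besides Hhex, Zbtb20, a repressor of fetal liver genes, and Esr1, the estrogen receptor, were higher, at 0.77 and 0.69. Neither was called with totals alone or on log2(RPKM + 1). Both calls were also lost without 4 h replicate 1, 4 h replicate 2 or 2 h replicate 2. Esr1 was not called by DESeq2 or with only the 4 libraries in the fit either. The lower calls numbered 1 without 4 h replicate 1, 2 without 4 h replicate 2, 2 without 2 h replicate 1 and 1 with 2 h replicate 2 left out, and the higher calls 1, 1, 3 and 1. With totals alone 7 were lower and 1 higher. Thra overlaps the end of Nr1d1 on the other strand, and Nr1i3, Nfix and Zbtb20 overlap other genes too.

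All called genes of ribosome assembly rose, by small amounts. Of 76 tested, 12 were called higher and 0 lower, and 69 had a log2 fold change above 0, with a median of 0.33. Among all genes tested 6461 of 12199 were above 0, and 2.61% were called higher and 4.09% lower. Nop2, a nucleolar methyltransferase of ribosomal RNA, had 36.1 and 34.3 CPM at 4 h, against 18.9 and 18.8 CPM at 2 h (log2 fold change 0.90 ± 0.17, adjusted p = 0.0085 in edgeR's test). Its 24 h libraries, with 27.6 and 30.0 CPM, lay between. Gnl2, a nucleolar GTPase, had 87.5 and 74.9 CPM at 4 h, against 42.5 and 39.4 CPM at 2 h. Heatr1, Rrp9 and Brix1, assembly factors of the small and large subunits, had log2 fold changes of 1.01, 0.97 and 0.93. With totals alone 5 of the list were called, without 4 h replicate 1 the count was 0, without 4 h replicate 2 it was 4, without 2 h replicate 1 it was 6 and without 2 h replicate 2 it was 2. Cytosolic ribosomal proteins, with 1 call in 74 (Rps12), and aminoacyl-tRNA synthetases, with 0 in 22, had medians of 0.20 and 0.05. The Rps12 call was lost with totals alone, on log2(RPKM + 1), without a filter, with only the 4 libraries and with a replicate block. It was also lost without 4 h replicate 1, 4 h replicate 2 or 2 h replicate 2. The alternative without the low count filter and DESeq2 made 18 and 9 calls in the assembly list, and the fit of only the 4 libraries 6.

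Of 25 ATF4 targets and amino acid transporters 4 were called higher and 0 lower, with a median of 0.66. Among all genes tested 2.61% were called higher. Atf4, the transcription factor of amino acid and protein stress, had 207 and 139 CPM at 4 h, against 86.4 and 70.1 CPM at 2 h (log2 fold change 1.15 ± 0.20). Ddit4, the stress-induced inhibitor of mTORC1, had 57.5 and 41.0 CPM at 4 h, against 9.64 and 12.3 CPM at 2 h (log2 fold change 2.17 ± 0.35, adjusted p = 0.0038 in edgeR's test). Psat1, of serine synthesis, had 6.71 and 2.50 CPM at 4 h, against 1.13 and 0.273 CPM at 2 h. Mthfd2, of mitochondrial folate metabolism, had 10.5 and 3.59 CPM at 4 h, against 1.99 and 2.05 CPM at 2 h. The Mthfd2 call was lost with totals alone, on log2(RPKM + 1) and with only the 4 libraries in the fit. It was also lost without 4 h replicate 1, 2 h replicate 1 or 2 h replicate 2. At 4 h, replicate 1 was higher than replicate 2 in all 4 genes. The list counted 2 calls without 4 h replicate 1, 5 without 4 h replicate 2, 3 without 2 h replicate 1 and 1 with 2 h replicate 2 left out, and Ddit4 was called whichever library was left out.

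A few chaperone and protein quality control genes were lower, where 4.09% of all genes tested were called lower. Of 33 ER stress and secretory genes 3 were called lower and 0 higher: Herpud1, Sel1l and Syvn1, which together build the complex that retrieves misfolded proteins from the endoplasmic reticulum for degradation. Herpud1 had 149 and 83.5 CPM at 4 h, against 270 and 255 CPM at 2 h (log2 fold change -1.17 ± 0.25), Sel1l had 165 and 184 CPM at 4 h, against 298 and 309 CPM at 2 h, and Syvn1 had 61.3 and 48.2 CPM at 4 h, against 144 and 116 CPM at 2 h. Of 28 heat shock genes Hspa1b, an inducible HSP70, and Hsph1, its exchange factor, were lower, at -2.11 and -1.22. Of 34 proteasome genes 0 were called, and of 75 oxidative phosphorylation genes 0, at medians of 0.00 and -0.09, but 5 oxidative phosphorylation genes were lower with totals alone and 10 on log2(RPKM + 1). Without 4 h replicate 1 the ER list counted 1 call, and without any other single library 0, while the heat shock list counted 0, 2, 1 and 0 without 4 h replicate 1, 4 h replicate 2, 2 h replicate 1 and 2 h replicate 2. The ER list counted 7 lower calls with DESeq2, with totals alone, on log2(RPKM + 1) and without a filter, and the heat shock list 4 with totals alone and on log2(RPKM + 1).

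**Figure D3:**
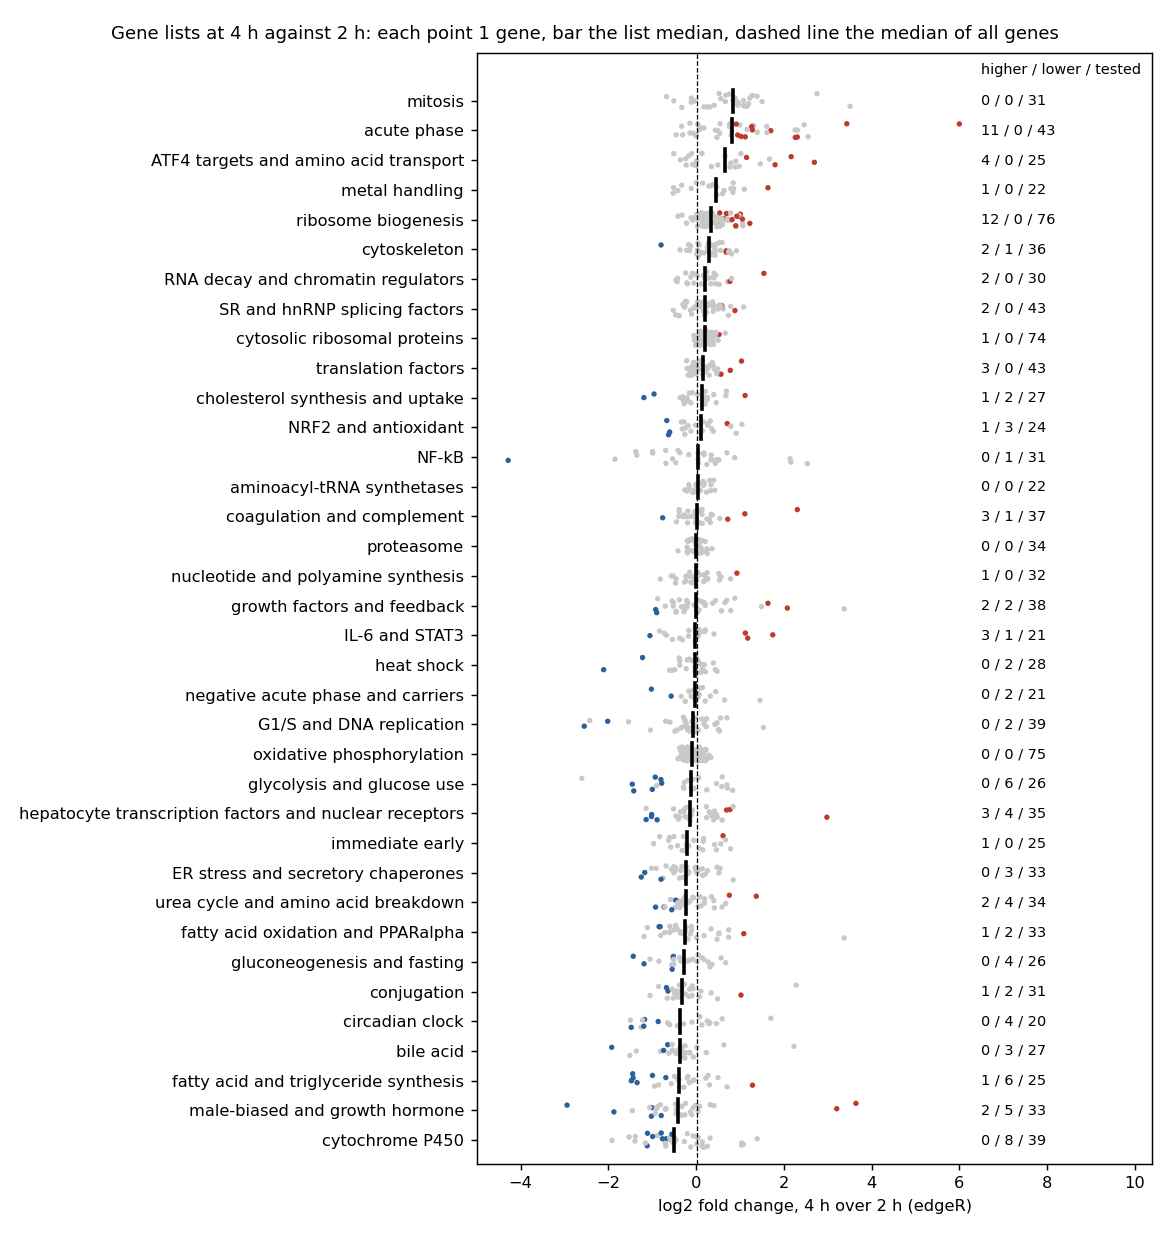
Each row is 1 of 36 gene lists, each point 1 tested gene at its edgeR log2 fold change of 4 h over 2 h (red called higher, blue called lower, grey not called), and the bar the list's median. Mitosis (0.84) and acute phase genes (0.81) have the highest medians and cytochrome P450 genes (-0.50) the lowest, with the median of all genes at 0.03 as a dashed line.

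No cell division programme was called at this step. Of 31 mitosis genes 0 were called (1 higher with DESeq2, 3 higher without a filter), although their median log2 fold change of 0.84 was the highest of the 36 lists. Their summed level was 63.1 and 98.2 CPM at 4 h, against 49.9 and 44.2 CPM at 2 h. The 4 h pools were above the 2 h pools but few reads lay behind each gene. Of 39 tested for G1/S and replication 0 were higher and 2 lower, a share near the 4.09% of all genes called lower: Mcm10, with 4.95 and 7.49 CPM at 4 h, against 47.4 and 25.8 CPM at 2 h, and Cdk6, with 0.639 and 0.780 CPM at 4 h, against 2.41 and 3.41 CPM at 2 h. Mcm10 lost its call without 4 h replicate 1, 4 h replicate 2 or 2 h replicate 1 (adjusted p up to 0.12), and Cdk6 whichever library was left out (up to 0.19). Of 36 cytoskeleton genes, the tropomyosins Tpm4 and Tpm1 were higher at 0.69 and 0.68, and Tuba4a, an alpha tubulin, was lower with 72.8 and 66.6 CPM at 4 h, against 117 and 126 CPM at 2 h. Tuba4a was called whichever library was left out. Tpm4 lost its call with totals alone, on log2(RPKM + 1), with only the 4 libraries and whichever library was left out (adjusted p up to 0.17), and Tpm1 in the same analyses except when 4 h replicate 2 was left out (up to 0.26).

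Of 30 genes of RNA decay and chromatin, Jmjd1c, a histone demethylase relative, had 122 and 214 CPM at 4 h, against 51.2 and 63.9 CPM at 2 h (log2 fold change 1.54 ± 0.25) and was called whichever library was left out. Brd2, a bromodomain reader of acetylated histones, had 209 and 141 CPM at 4 h, against 90.2 and 115 CPM at 2 h. It was not called without 4 h replicate 1, 2 h replicate 1 or 2 h replicate 2 (adjusted p up to 0.24). The splicing factors Tra2b and Srsf10 had log2 fold changes of 0.58 and 0.88. Both lost their calls with totals alone, on log2(RPKM + 1) and with only the 4 libraries in the fit. Among translation factors Eef1e1 had 27.9 and 23.4 CPM at 4 h, against 13.9 and 11.2 CPM at 2 h, and Eif4a1, the initiation helicase, and Eif1a had 0.57 and 0.78. Tra2b, Srsf10, Eef1e1, Eif4a1 and Eif1a each lost the call without at least 4 h replicate 1 and 2 h replicate 2 (adjusted p up to 0.26).

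Markers of nonparenchymal cells had few calls. Marco, a scavenger receptor of Kupffer cells, had 125 and 64.8 CPM at 4 h, against 12.8 and 26.9 CPM at 2 h (log2 fold change 2.26 ± 0.59, adjusted p = 0.037 in edgeR's test). Clec4f, which in the mouse marks Kupffer cells, was not called (log2 fold change 0.31). Marco thus passed the test and Clec4f of the same cells did not. Among endothelial markers, Lyve1 had 115 and 112 CPM at 4 h, against 49.5 and 54.4 CPM at 2 h, while Kdr, a receptor of VEGF, had 23.2 and 24.0 CPM at 4 h, against 42.4 and 48.7 CPM at 2 h. Spp1, osteopontin, from the cholangiocyte list and also made by macrophages, had 573 and 377 reads at 4 h, against 146 and 139 reads at 2 h. Ccr2, the monocyte chemokine receptor, had 27 and 12 reads at 4 h, against 4 and 5 at 2 h, and it was not called by DESeq2, on log2(RPKM + 1), with only the 4 libraries or with a replicate block. These 5 calls were each lost without 3 or more of the 4 libraries: 4 h replicate 1 for all 5, 2 h replicate 2 for all 5, 2 h replicate 1 for Marco, Spp1, Lyve1 and Ccr2, and 4 h replicate 2 for Lyve1 and Kdr (adjusted p up to 0.29).

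**Figure D4:**
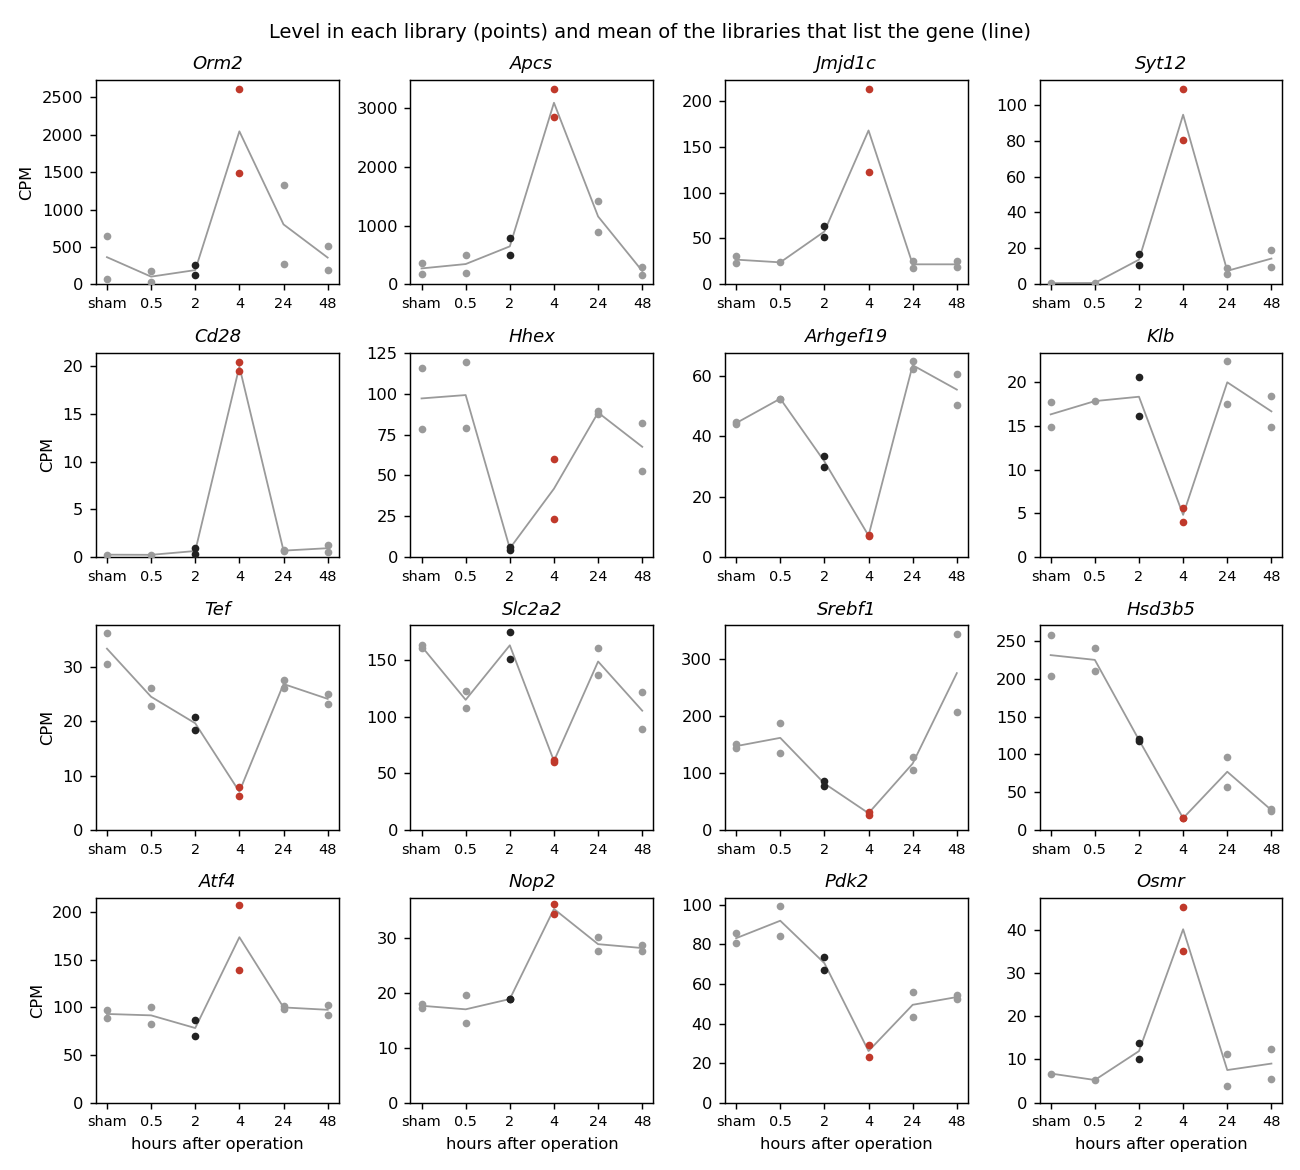
CPM of 16 genes in each library (points) after a sham operation and at 0.5, 2, 4, 24 and 48 h after hepatectomy, with the line through the mean of the libraries that list the gene. Red points are 4 h and black points 2 h; Cd28 is at 20.4 and 19.5 CPM at 4 h and at most 1.28 CPM at the other times shown, and Hhex is lowest at 2 h.

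Some called genes were neighbours on the chromosome. Besides the Hsd3b and Cyp2c genes, the carboxylesterases Ces1e, Ces1f and Ces1g (chr8:93201218-93337209) were lower, with log2 fold changes from -1.10 to -0.63, and they were named after their values were seen. Higher and lower genes were alike in length and base composition. The median transcript length was 3257 bases for higher genes, 3061 for lower genes and 2839 for all genes tested, and the median promoter GC content 61.7%, 61.7% and 60.7%. Their median level over the 4 libraries was 26.3, 37.0 and 14.1 CPM.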

How the data were processed

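Per the labels' protocols, total RNA from frozen liver was pooled from 3 mice per library, poly(A) RNA was enriched, and fragments were primed with random hexamers. Per the file headers, the deposited counts are a gene's uniquely mapped reads, and the deposited RPKM values divide them by its length and the library total. The submitters' processing notes name mm10 as build; for aligner, counter and strand nothing is given in the sources used here. The 16 complete tables of 18 entered 1 fit, which shares 1 estimate of the spread over all groups; sham replicate 2 and 0.5 h replicate 1, whose tables end early, were left out, and their values are shown only for genes they list.

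The test was that of edgeR 4.0.16 under R 4.3.3, on counts (TMM, quasi-likelihood F test, contrast of 4 h minus 2 h, 7 residual degrees of freedom, biological coefficient of variation 0.166). Genes needed 15 reads in all and, in 2 or more libraries, the CPM that 10 reads make at median depth. Adjusted p is Benjamini-Hochberg over all genes tested, at a threshold of 0.05. The SE is the absolute log2 fold change over the root of F. Replicates are pools, and the labels do not say whether pools came from separate days, so p-values measure the spread between pools. The 2 pools of a time differed beyond counting error (chi-square per gene 15.4 at 4 h and 15.8 at 2 h). Intervals cover counting error only.

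Gene lists and members were chosen with earlier results of these data known. Lists are described by counts and medians without a test. Named genes were the 14 largest rises and 14 largest falls among called genes averaging 10 CPM or more with separate libraries, unnamed gene models left out, and up to 5 called members per list and direction, smallest p first; others are marked in the text. Some entries may not be reported here. Promoters were taken from RefSeq tables, and exon overlaps from GENCODE M21. Alternatives were DESeq2 1.42.0, RLE factors, totals alone, limma 3.58.1 on log2 CPM (prior count 2) and on log2(RPKM + 1), no filter, the 4 libraries alone, a replicate block and leaving out each library. The fit was tested on simulated data with 1 common spread for all genes and changes set in well-read genes only. It called 56 of 100 genes changed 2-fold and 98 of 100 changed 4-fold, with 7 false calls among 161. A gene not called may thus still have changed. Tables and figures used Python 3.11.15, pandas 2.3.3 and matplotlib 3.10.9.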

Additional observations from a re-analysis of the deposited data

How the results depend on the processing

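Of the 817 calls, 104 were made in the same direction in all 12 other analyses listed under processing, 35 higher and 69 lower. Of 133 named genes, 26 were called in all 12 and 95 in all that kept every library, and 0 changed direction in any. Another 2, Cux2 and Cxcl2, had no adjusted p in DESeq2 and were called in the others that kept every library. Totals alone gave 1237 calls, 1005 of them lower; no filter gave 1245, 566 of them higher. On log2(RPKM + 1) limma called 984 lower, and with only the 4 libraries 316 were lower. Leaving out 1 library gave 169 to 460 calls, 55 to 166 higher and 114 to 316 lower, fewest without 2 h replicate 2. With 1 library left in a group, that library is assumed to vary like the other groups. Some of these fits hold fewer libraries or more genes by construction, and the cause of the shifts was not tested. DESeq2 called 863 genes, and RLE factors 831. Same-numbered pools of 4 h and 2 h deviated with a correlation of -0.185 (from -0.359 to 0.287 over 21 pairs of groups). With 2 pools per group this cannot show whether the numbers pair the pools, and the labels do not say. A replicate block gave 830 calls (342 higher, 488 lower), and the crossed pairing, added after seeing the data, 737. Genes with few reads, such as Cxcl2, Ccr2, Psat1 and Cdk6, are limited by depth.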

Other observations

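Further gene groups were described after their values had been seen, so they carry no test of the group. Of all genes tested, 2.61% were called higher and 4.09% lower. Of 39 genes of cell junctions tested, 12 were called lower and 2 higher, with a median log2 fold change of -0.17. The lower ones included the claudins Cldn1 and Cldn3, which seal the tight junction, and the tight junction genes Tjp3, Cgn, Pard3 and Magi1. The others were the adhesion genes Dsp, Dsg2, Pkp4, Cdh2 and Pvrl2, and Marveld1. Its relatives Marveld2 and Marveld3 were not called (log2 fold changes 0.73 and 1.18), nor was Ocln (-0.05). Cldn1 had 35.8 and 44.0 CPM at 4 h, against 92.2 and 71.2 CPM at 2 h (log2 fold change -1.03, adjusted p = 0.011 in edgeR's test). Of 26 genes of semaphorins, neuropilins, plexins and ephrins, guidance cues and receptors of cell contact, 5 were higher (Nrp1, Plxna1, Plxna2, Sema6d and Efna1) and 2 lower (Plxnb2 and Neo1). Over the planned analyses that kept every library the junction list counted 10 to 14 lower calls, and 7 to 9 when 1 library was left out. The guidance list counted 3 to 5 higher and 1 to 3 lower calls with every library kept, and 2 to 3 higher and 0 to 2 lower with 1 left out.

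Of 19 genes of sphingolipid synthesis and turnover, Sptlc2, Cers6, Sgms1 and Ugcg were higher and Sgms2, Sphk2 and Sgpl1 lower. Sgms1, a Golgi sphingomyelin synthase, and Sgms2, the one also at the plasma membrane, thus parted. Sgms1 overlaps an opposite-strand gene. A list of 21 genes held FoxO-type and insulin-repressed genes along with the signalling genes Insr, Akt1 and Akt2. In it 9 were lower, among them Foxo1, G6pc, Deptor, Bcl2l11 and Gadd45a, and 1 was higher, Ddit4, with a median log2 fold change of -0.56. The 11 not called included Igfbp1 (log2 fold change -0.21, with groups that overlapped), Pck1 (-0.56), Irs1 (-1.05) and Irs2 (-0.85). With every library kept the sphingolipid list counted 4 to 5 higher and 1 to 5 lower calls, and with 1 library left out 1 to 2 higher and 0 to 1 lower. The FoxO and insulin list counted 7 to 11 lower calls with every library kept, and 1 without 4 h replicate 1, 4 without 4 h replicate 2, 4 without 2 h replicate 1 and 2 with 2 h replicate 2 left out. Foxo1, G6pc and Ddit4 also stand in lists of the report.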
